A study of Mus musculus with 18 samples.

Results

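Retained-intron transcripts are annotated splice variants that keep intron sequence which the coding transcripts of the same gene remove. Members were the transcripts of GENCODE M21 type retained_intron, 200 nt or longer, in protein-coding genes other than Ptbp1 whose total abundance averaged at least 10 TPM over 18 libraries. TPM is an abundance per transcript, scaled for transcript length and library size. The rule found 11573 transcripts in 4220 genes, out of 20546 such transcripts in 8792 protein-coding genes at any level and out of 136176 annotated transcripts of 53458 genes in the whole series. For each gene and library the value used was the summed TPM of these transcripts as a share of the gene's TPM, called the retained-intron share. Members were thus chosen by the gene mean TPM over all libraries, and no difference between groups entered that choice. Pcsk7 (10.032 TPM), Zfp467 (10.032 TPM) and Insig2 (10.035 TPM) lay just inside the limit, with mean retained-intron shares of 24.8%, 3.30% and 39.4%. Bbs5 (9.9889 TPM), Fzd6 (9.9871 TPM) and Sesn3 (9.9862 TPM) lay just outside it.

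The libraries came from 3 bone marrow populations of C57BL/6 mice, sorted by flow cytometry, with 3 libraries for each of 6 groups. HSC were hematopoietic stem cells (Lin-, Sca-1+, c-kit+, CD150+, CD48-), preMegE (CD150+, CD105-) were progenitors of megakaryocytes and red cells, and preCFU-E (CD150+, CD105+) were progenitors further along the red cell path. In each population, libraries of Ptbp1 fl/fl mice, which carry the floxed gene undeleted and are called WT here, were set beside libraries of Ptbp1 KO mice (Ptbp1 -/- in the series' design text). The labels name no Cre driver, age or sex, and do not say whether the libraries of a group came from separate animals or pools, so p-values measure the spread between these libraries, which may be technical. Total RNA was amplified to cDNA before library construction.

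Intron removal is carried out by the spliceosome, which recognises the donor site at the 5′ end of an intron and, at its 3′ end, a pyrimidine tract followed by the acceptor site. A transcript that keeps an intron often stays in the nucleus or carries an early stop codon and is degraded, so retention can lower the output of a gene. Regulated intron retention is known in blood cell formation, including late red cell maturation, and in genes of the splicing machinery itself. PTBP1 is an RNA-binding protein that binds pyrimidine-rich stretches such as UCUU, mostly in introns, and often represses the exon beside them.

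Total estimated reads ran from 15956408 to 29226287 per library, of which 317439 to 1003065 were assigned to the members' retained-intron transcripts. Ptbp1 itself, the targeted gene, had 195.8 to 220.8 CPM, reads scaled to library size, in WT HSC and 90.33 to 107.7 in KO HSC. It had 595.5 to 787 CPM in WT preMegE and 187 to 232 in KO preMegE, then 1116 to 1345 in WT preCFU-E and 297.6 to 317.8 in KO preCFU-E. These sums cover the whole gene, and the deleted part was not examined. The summed level of 8 HSC markers fell from 1345 to 1387 CPM in WT HSC to 15.29 to 19.27 in WT preCFU-E, and that of 8 erythroid markers rose from 120 to 144.6 CPM to 6010 to 7585, as the population labels say. Megakaryocyte and preMegE markers (6 genes) summed to 323.7 to 371.1 CPM in WT HSC, 689.9 to 915.3 in WT preMegE and 221.9 to 308.4 in WT preCFU-E. Among them Vwf was lower in every WT preMegE than in every WT HSC library, and Pf4 and Gp9 overlapped between these groups. Macrophage markers (5 genes) summed to at most 16.79 CPM, granulocyte and monocyte markers (6 genes) to at most 64.69, and B cell markers (3 genes) to at most 4.446 in any of the libraries. T cell markers (2 genes) summed to at most 1.887 CPM and stromal and endothelial markers (4 genes) to at most 17.83. All replicate pairs differed by more than sampling noise (chi-square per degree of freedom of 11.92 or more). Quantification used annotated transcripts alone, so a read inside an intron could count only toward a transcript that holds that stretch, and unspliced precursor RNA cannot be told apart from a finished retained-intron transcript.

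The printed windows show what a member keeps. They are from introns of members called in a KO comparison, among the 10 with the largest difference that had at least 100 bases of a coding-region intron. Those calls depended on the settings, as described below. Windows of Ptbp2, Clk1, Srsf11 and U2af2 were added, chosen after their values were seen. The letters are those of the GENCODE M21 retained-intron transcripts on GRCm38, 5′ to 3′ on the gene's own strand. Capitals mark TCTT, the motif CTCTCT and the motif TTCTCT, pyrimidine runs of the kind PTBP1 binds, searched on the transcribed strand only and allowed to overlap each other. The first group gives the last 100 bases of the intron, up to the acceptor site.
Vsig10l-205 (chr7:43464176-43464805, + strand): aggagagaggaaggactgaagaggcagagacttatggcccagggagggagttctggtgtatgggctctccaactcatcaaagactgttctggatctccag
Dstyk-206 (chr1:132459991-132462912, + strand): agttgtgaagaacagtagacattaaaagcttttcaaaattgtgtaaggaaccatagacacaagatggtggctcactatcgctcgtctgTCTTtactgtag
Synj2bp-201 (chr12:81504640-81510828, - strand): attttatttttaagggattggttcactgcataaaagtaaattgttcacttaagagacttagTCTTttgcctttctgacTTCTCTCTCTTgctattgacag
Lgals9-204 (chr11:78969804-78971316, - strand): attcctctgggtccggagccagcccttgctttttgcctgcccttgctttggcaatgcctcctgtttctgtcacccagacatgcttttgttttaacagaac
Ppm1h-202 (chr10:122802580-122811446, + strand): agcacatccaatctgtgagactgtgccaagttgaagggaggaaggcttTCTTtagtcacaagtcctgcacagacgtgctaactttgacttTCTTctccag
Ptbp2-205 (chr3:119740511-119747591, - strand): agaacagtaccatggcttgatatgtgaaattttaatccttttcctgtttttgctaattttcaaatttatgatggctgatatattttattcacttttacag
Clk1-204 (chr1:58420212-58421082, - strand): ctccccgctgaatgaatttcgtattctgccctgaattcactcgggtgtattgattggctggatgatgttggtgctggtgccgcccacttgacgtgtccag
Srsf11-205 (chr3:158017892-158019311, - strand): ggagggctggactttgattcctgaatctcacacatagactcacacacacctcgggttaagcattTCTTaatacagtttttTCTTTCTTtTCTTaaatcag
U2af2-206 (chr7:5068184-5069443, + strand): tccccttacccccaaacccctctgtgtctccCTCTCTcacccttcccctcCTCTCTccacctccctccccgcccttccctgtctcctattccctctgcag

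The second group gives the first 100 bases of the intron, from the donor site, for transcripts that keep that side alone.
A430005L14Rik-205 (chr4:153959863-153960530, + strand): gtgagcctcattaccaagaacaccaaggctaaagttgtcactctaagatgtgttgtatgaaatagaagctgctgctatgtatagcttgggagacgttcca
Pfkl-203 (chr10:77996413-77997523, - strand): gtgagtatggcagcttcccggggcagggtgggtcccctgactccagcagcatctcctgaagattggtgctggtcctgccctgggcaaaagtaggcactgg
Jade3-203 (chrX:20494369-20499425, + strand): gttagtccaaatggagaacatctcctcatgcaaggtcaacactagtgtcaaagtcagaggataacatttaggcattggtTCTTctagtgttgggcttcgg
Smim8-208 (chr4:34769148-34771257, - strand): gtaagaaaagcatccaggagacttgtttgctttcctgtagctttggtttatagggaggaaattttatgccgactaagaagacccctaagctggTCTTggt

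Among the acceptor-side windows, the Synj2bp window held the motifs in a cluster next to the acceptor, Srsf11 held TCTT at 4 positions, and U2af2 held CTCTCT at 2 positions in a stretch that was 86% C or T. The windows of Vsig10l, Lgals9, Ptbp2 and Clk1 held none of the 3 motifs. Over the 7162 introns of members whose last 100 bases lie in a retained-intron transcript, 64.3% held TCTT, 9.56% held CTCTCT and 13.3% held TTCTCT, so a match in one window is common. The Lgals9 intron is written to the acceptor of one coding transcript, and another coding transcript of the gene begins its exon slightly upstream.

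Most retained-intron transcripts of the annotation are fragments that run partway into an intron. Of the 11573 transcripts, whose median length was 817 nt, 3340 (28.9%) held a whole intron of a coding transcript. Another 4071 entered an intron from the donor side alone and 3766 reached its acceptor side, so that 96.6% held intron sequence of either kind. A member had a median of 2 such transcripts and at most 16. Whole retained introns numbered 4070 in 1962 members. They were short: their median length was 286.5 nt against 1443 nt for the 62394 other introns of the same members' coding transcripts, and 51.4% against 16.3% were under 300 nt. In 98.3% the intron began with GT and ended with AG, the median GC content was 49.3%, and 95.8% lay between coding exons.

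**Figure D1:**
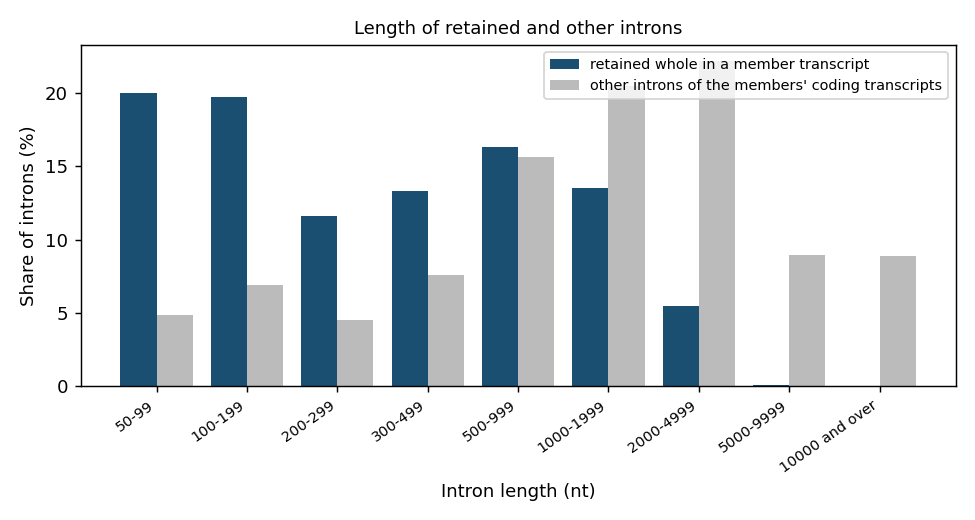
The share of introns (y axis, %) in each length class (x axis, nt) is drawn for the 4070 introns held whole in a retained-intron transcript and for the 62394 other introns of the members' coding transcripts. The introns held whole gather in the classes under 300 nt, which hold 51.4% of them and 16.3% of the others. The others include introns that a retained-intron transcript enters only partway.

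Within a group the share did not follow intron length. Across 1962 members the Spearman correlation of the median retained-intron length with the share was -0.03 in WT HSC, 0.01 in WT preMegE and 0.00 in WT preCFU-E. Members with the shortest introns (56 to 152.5 nt) had a median share of 27.1% in WT HSC, and those with the longest (889 to 7741.5 nt) had 25.05%. The share did rise with the number of retained-intron transcripts annotated for a gene (Spearman 0.56, 0.51 and 0.50 in the same groups). Genes share the libraries and the annotation, so these values are a description.

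The main pattern over all members was the population. The median share over 4220 members was 20.4%, 18.8% and 20.5% in the 3 WT HSC libraries and 21.3%, 21.4% and 18.2% in the 3 KO HSC libraries. It was 8.13%, 5.89% and 5.37% in WT preMegE and 9.43%, 6.22% and 6.11% in KO preMegE. In WT preCFU-E it was 5.45%, 3.27% and 2.55%, and in KO preCFU-E 3.05%, 3.21% and 2.98%. Every HSC library lay above every preMegE and preCFU-E library, while WT and KO libraries of a population overlapped. The first WT preMegE, KO preMegE and WT preCFU-E libraries each stood above the other 2 of their group. A single HSC library kept 590 to 901 members at a share over 50%, a preMegE library 189 to 343 and a preCFU-E library 167 to 211. The pooled share, summed TPM over summed TPM, moved the same way, from 19.5% to 24.4% in HSC and 7.81% to 10.9% in preMegE to 6.57% to 8.33% in preCFU-E.

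**Figure D2:**
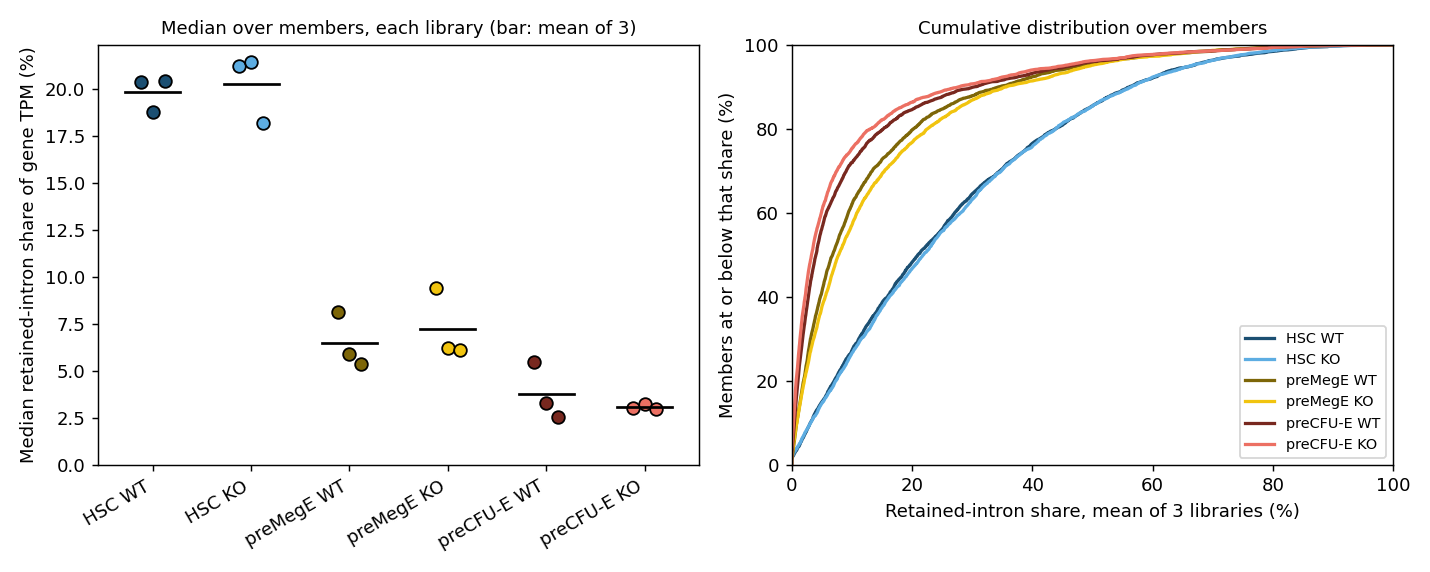
Left, the median retained-intron share over the members (y axis, % of gene TPM) is plotted for each library as a point, by group, with the mean of 3 libraries as a bar. Right, the cumulative percentage of members (y axis) is drawn against the group mean share (x axis, %). Both HSC curves lie to the right of the others, with medians of 21.01% and 21.9% against 3.32% to 7.84%.

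Other transcript classes of the same genes moved beside the retained-intron share. The class shares of a gene together make up its whole TPM, so a lower retained-intron share requires a net rise of the other classes. The higher protein-coding share is therefore not a separate result. The median share of protein-coding transcripts was 60.7% to 66.8% in HSC libraries, 80.2% to 88.4% in preMegE and 88.0% to 93.2% in preCFU-E. Transcripts annotated for nonsense-mediated decay had a median share of 2.99% to 4.48% in HSC, 2.27% to 3.40% in preMegE and 1.52% to 2.51% in preCFU-E, in the 1718 member genes that have them, so HSC and preMegE overlapped. Transcripts of the type processed_transcript had 6.72% to 9.51%, 3.44% to 4.70% and 1.57% to 3.09% in the same order. In percentage points replicates also differed more in HSC. The median SD of a fitted member's share was 7.0 points in WT HSC, 2.26 in WT preMegE and 1.83 in WT preCFU-E. The median share over members was also larger in WT HSC, at 21.01%, 6.83% and 4.06% in the same order. The spread relative to the share was not compared. Cell number and RNA per cell, which are among the possible causes, cannot be told apart in these samples. No cause of these differences was tested.

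The members with the most retained-intron TPM did not all move with the rest. Of the 8 highest by mean over 18 libraries, Atp5b rose and Capns1 fell from WT HSC to WT preMegE in the test described below, and the other 6 did not pass it, which does not show that their shares stayed the same. Serbp1, which encodes an RNA-binding protein found on ribosomes, had shares of 61.9%, 60.2% and 63.7% in WT HSC and 57.8%, 58.2% and 58.4% in WT preCFU-E. Eef1g, a subunit of translation elongation factor 1, had group means from 49.6% to 59.6%. Ncl, which encodes the nucleolar protein nucleolin, had 67.2% ± 3.71 (SD, n = 3) in WT HSC and 77.3% ± 0.194 (SD, n = 3) in WT preCFU-E. Rps20, a ribosomal protein of the small subunit, had group means from 80.7% to 86.6%. Atp5b, the beta subunit of ATP synthase, carried the highest mean retained-intron TPM over the 18 libraries, with 188 TPM in WT HSC and 2061 TPM in WT preCFU-E. Its share was 16.3%, 12.1% and 15.4% in WT HSC and 27.3%, 26.8% and 29.0% in WT preMegE, with no overlap. Hnrnpk, a poly(C)-binding hnRNP, had 30.01% ± 3.55 in WT HSC and 41.0% ± 1.94 in WT preMegE (SD, n = 3). Adgrg1, an adhesion receptor, had 35.1% ± 3.58 and 42.6% ± 3.15 (SD, n = 3). The WT HSC and WT preMegE libraries of Hnrnpk and Adgrg1 did not overlap either (adjusted p = 0.162 and 0.296). Capns1, the small calpain subunit, had 70.3%, 85.8% and 75.9% in WT HSC and 67.4%, 48.4% and 49.7% in WT preMegE.

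In a few members the retained-intron transcripts were nearly the whole gene. All TPM of Adgrl3 and H2-Q10 was assigned to them in each of the 18 libraries, so that these 2 members were above the 99% limit and not tested. Adgrl3 averaged 34.0 and 39.3 TPM in WT and KO HSC but 0.822 to 3.36 TPM in the progenitor groups, so its share there rests on little TPM. The mean share over 18 libraries was 94.7% for Lima1, an actin-binding protein, 94.7% for Pitpnm1, a phosphatidylinositol transfer protein, and 91.5% for Mrps26, a mitochondrial ribosomal protein. It was 90.4% for Dynlt1c, a dynein light chain, 89.7% for Gga2, a trafficking adaptor, and 89.2% for Clptm1. H2-Q10 and Dynlt1c belong to families with near-identical copies, so their reads and shares are uncertain. The gene total of Dynlt1c was also low in WT preCFU-E, 2.22 TPM against 29.6 TPM in WT HSC.

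Differences were tested with limma on the log2 odds of the share, in a single fit of 13478 gene-by-class shares. Of the 4220 members, 4034 entered it, because 184 had a mean share under 1% and 2 over 99%. A member was called at a Benjamini-Hochberg adjusted p below 0.05 over all shares and a difference of at least 5 percentage points between group means. From WT HSC to WT preMegE, 1713 of 4033 members fell and 42 rose. A gene mean of at least 10 TPM in each of these groups, a limit chosen after seeing the data, left 3456 members. Of those, 1538 fell and 33 rose. Over all gene-by-class shares, 36.0% were called in this comparison, 17.4% higher and 18.6% lower, against 42.5% of members lower and 1.04% higher. In every comparison all shares include those of the members, which here gave 1713 of the 2512 shares called lower. The median difference over members was -11.46 points, or -1.51 on the log2 odds scale, against 3.68 points over the other shares. The other shares include the remaining classes of the same genes, so their rise in part mirrors the members' fall. The libraries of the groups did not overlap in 2418 members, beside a share of 51.8% over all shares tested. When each log odds was set against the median of its class in the library, an alternative chosen after seeing the data, 293 members were called, 158 higher and 135 lower.

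Members of the splicing machinery were among those that fell, with 3 shown here that were chosen after their values were seen. Srsf11, an SR-related splicing factor, had shares of 65.4%, 68.6% and 66.6% in WT HSC and 25.8%, 11.9% and 11.5% in WT preMegE (log2 odds -3.36, SE 0.51, adjusted p = 0.000371). U2af2, the large subunit of the factor that binds the pyrimidine tract, had 73.4%, 67.7% and 63.1% against 16.1%, 8.49% and 6.77% (log2 odds -4.14, SE 0.89, adjusted p = 0.00277). Clk1, a kinase that phosphorylates SR proteins, had 43.9%, 43.9% and 41.2% against 14.7%, 14.5% and 9.91% (log2 odds -2.27, SE 0.44, adjusted p = 0.00151). In none of the 3 did a WT HSC library reach down to a WT preMegE library. Reads of their retained-intron transcripts fell too, by 1.75 for Srsf11, 3.98 for U2af2 and 2.22 for Clk1 on the log2 scale (edgeR, adjusted p = 0.000456, 1.14e-05 and 2.00e-05). The gene total of Srsf11 was 123 TPM in WT HSC and 114 TPM in WT preMegE.

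**Figure D3:**
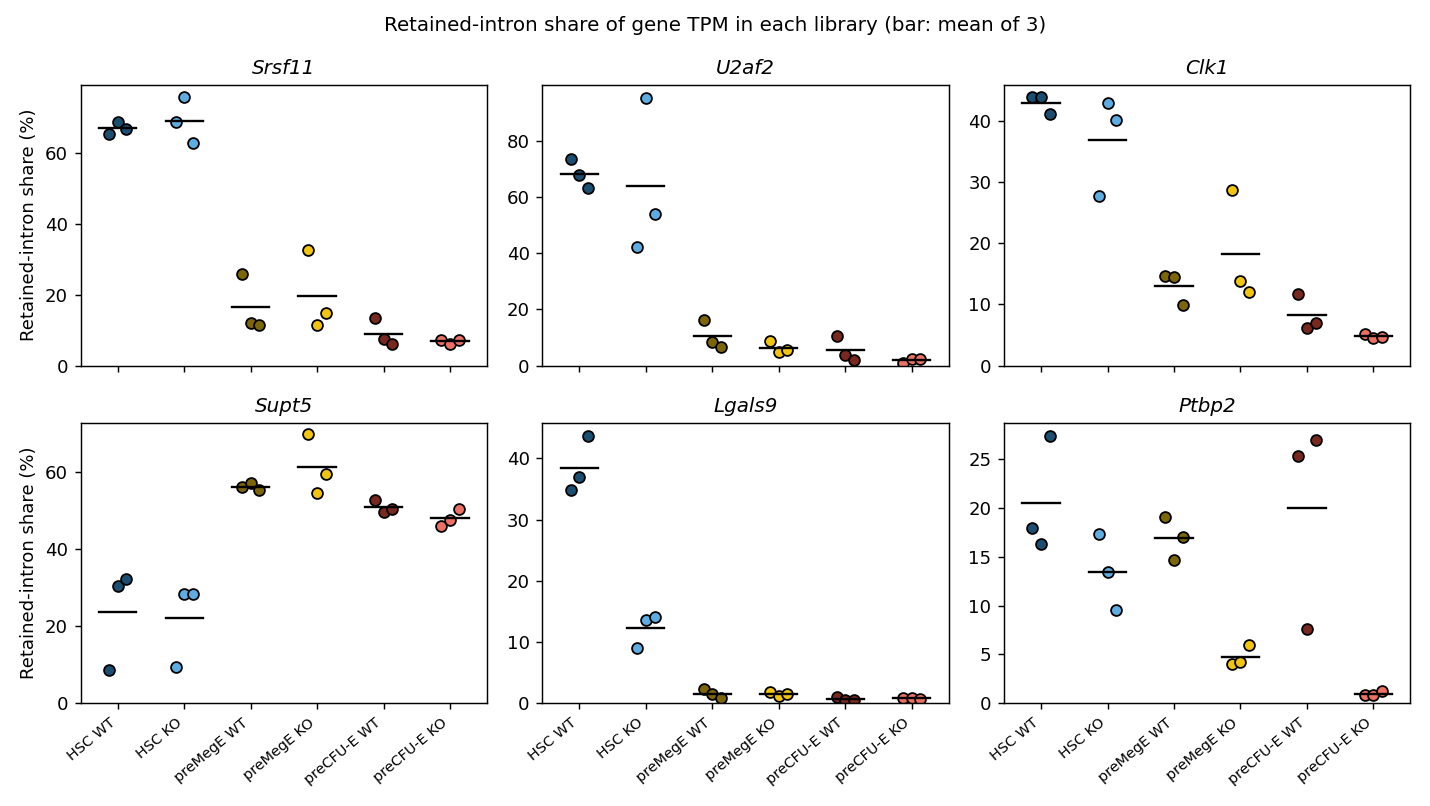
The retained-intron share (y axis, % of gene TPM) of 6 members is plotted for each library as a point, by group (x axis), with the mean of 3 libraries as a bar. Srsf11, U2af2 and Clk1 are higher in the WT HSC than in the WT preMegE libraries, Supt5 is higher in the progenitors, Lgals9 is lower in KO than in WT HSC, and Ptbp2 is near 1% in KO preCFU-E.

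The largest falls by percentage points spanned genes of low and moderate level. Ddx49, an RNA helicase, had 86.1%, 94.3% and 93.0% in WT HSC and 14.2%, 16.0% and 15.6% in WT preMegE, at 19.0 and 12.7 TPM. Acaa1a, a peroxisomal thiolase with a close copy in the genome, had 64.0%, 99.1% and 96.6% against 15.6%, 9.88% and 15.9%. Rrp9, a component of the small nucleolar ribonucleoprotein U3, had 96.6%, 80.0% and 81.4% against 15.9%, 20.4% and 9.10%. Thap3 had 89.6%, 84.9% and 77.3% against 28.1%, 9.29% and 6.89%. Nbeal2, needed for platelet alpha granules, had 85.0%, 82.4% and 87.3% against 30.2%, 6.17% and 13.1%. In these 5 the groups did not overlap. Sphk1, sphingosine kinase, had 100% in each WT HSC library and 17.7%, 5.62% and 4.10% in WT preMegE, but at gene totals of 0.216 and 1.08 TPM. It reached the 10 TPM limit through preCFU-E, so its difference rests on almost no TPM.

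Uty and Eif2s3y, both on the Y chromosome, were also among the largest falls. The share of Eif2s3y was 100% in all 6 HSC libraries and 33.8%, 21.2% and 22.0% in WT preMegE, while its gene total was 0.25 TPM in WT HSC and 30.4 TPM in WT preMegE. The share of Uty was 92.8%, 96.8% and 95.3% in WT HSC and 24.1%, 18.6% and 18.2% in WT preMegE, and reads of its coding transcripts were higher in preMegE by 10.20 on the log2 scale. Both have close relatives on the X chromosome. HSC and progenitor libraries thus differed in Y-linked coding reads as well, and sex and population cannot be told apart between them. Without the genes of chromosomes X and Y, 1664 members fell and 40 rose.

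Among the 42 members that rose, those with the largest differences had varied roles. Supt5, a transcription elongation factor, had shares of 8.61%, 30.3% and 32.1% in WT HSC and 56.0%, 57.1% and 55.2% in WT preMegE. Its retained-intron reads rose by 2.86 on the log2 scale (edgeR, adjusted p = 0.000203), more than its coding reads at 1.92. Cmtr1, an enzyme of mRNA cap methylation, went from 43.5%, 50.8% and 24.6% to 71.8%, 81.5% and 79.9%. Ctsb, the protease cathepsin B, went from 46.7%, 36.8% and 31.3% to 65.6%, 71.4% and 74.8%. Arhgef18 went from 19.2%, 14.3% and 17.6% to 51.8%, 60.8% and 63.4%, and Rexo1 from 39.99%, 39.6% and 26.7% to 73.8%, 67.8% and 70.6%. These groups did not overlap. Timm17b, a subunit of the mitochondrial import machinery, had 0%, 0% and 52.6% in WT HSC and 73.8%, 67.6% and 71.1% in WT preMegE, so its HSC value rests on 1 library. Cfap298 had 0%, 0% and 11.9% against 60.5%, 51.2% and 47.8%. Eipr1 had 0% in each WT HSC library and 25.7%, 35.4% and 35.7% in WT preMegE. Its gene held 366 reads over the 3 WT HSC libraries, which allows up to 0.82% of them in these transcripts.

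The reads were also tested by class. Their changes are relative to the scaling between libraries, so a rise or fall is not one of absolute amount. With edgeR on estimated counts summed per gene and class, retained-intron reads fell in 1449 and rose in 157 of 3859 members from WT HSC to WT preMegE, where 42.5% of all rows were called. Coding reads of the same genes rose in 2981 and fell in 143 of 4215. The median log2 change was -1.14 for retained-intron transcripts and 0.98 for coding transcripts, against -0.63 over all rows. Retained-intron reads fell while coding reads rose, as values without a test, in 74.3% of 3854 members with both. The 1606 calls came down to 832 without the second and to 766 without the third WT preMegE library.

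**Figure D4:**
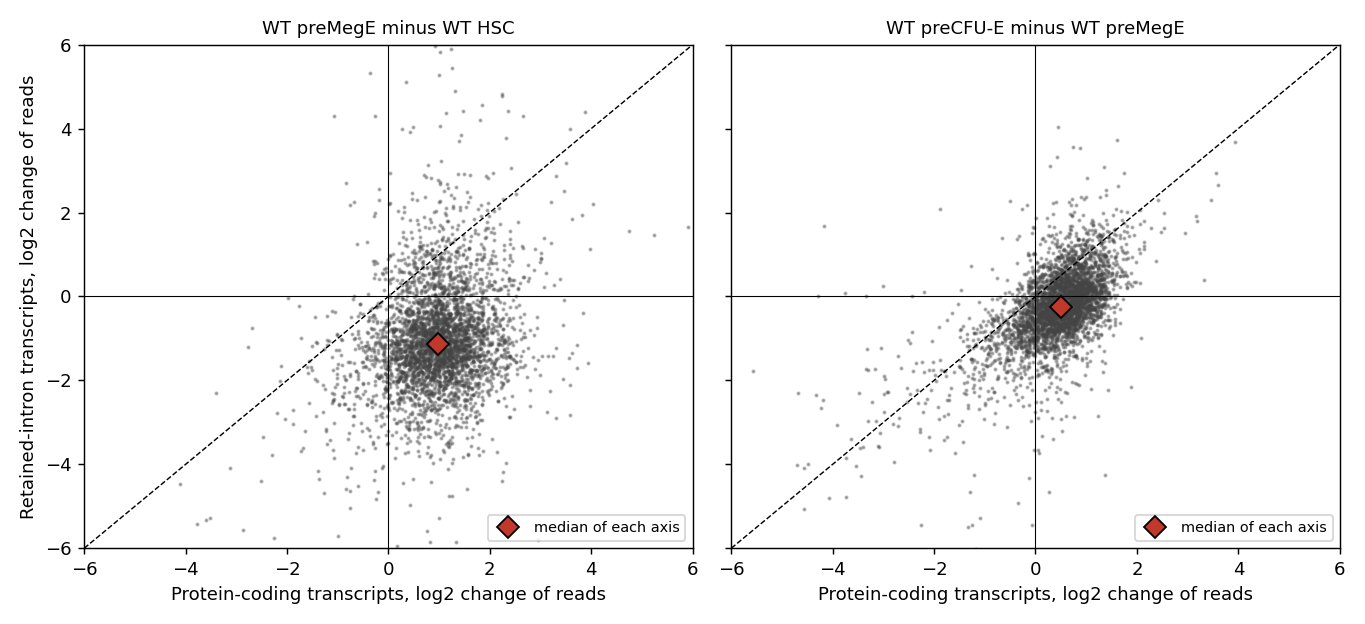
The log2 change of reads of retained-intron transcripts (y axis) is plotted against that of protein-coding transcripts (x axis) for 3854 members, left for WT preMegE minus WT HSC and right for WT preCFU-E minus WT preMegE. The diamond marks the median on each axis and the dashed line equal change. In the left plot 93.0% of members and in the right plot 83.8% lie below the line, and 25 and 21 members lie outside the axes.

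Gene lists, written from general knowledge with earlier results known, were read against the 42.5% of all members and 18.6% of all shares that fell from WT HSC to WT preMegE. The 18.6% includes the members' own shares. A list share near 42.5% is that of the members at large. That baseline depends on gene level: with a gene mean of at least 20 TPM, 1208 of 2421 members fell. The lists were not matched for gene level. In the SR and SR-like factors, 12 of 17 members fell from WT HSC to WT preMegE and none rose, and the median of the group means went from 34.0% to 8.05%. Luc7l (63.0% to 15.1%), Srsf3 (34.1% to 6.85%), Srsf1 (22.9% to 2.21%) and Tra2b (34.5% to 8.05%), all regulators of splice site choice, were among them. Srsf2 was the list's most abundant gene, at 8.19% and 1.72%. In the hnRNPs, packaging proteins of nascent RNA, 11 of 18 fitted members fell, among them Hnrnpl (60.1% to 13.1%), Pcbp2 (35.4% to 3.64%) and Hnrnpa2b1 (39.1% to 15.8%). In the CLK, DYRK and SRPK kinases, which phosphorylate SR proteins, 6 of 8 fell and the median went from 45.3% to 16.0%, with Srpk1 at 55.6% and 18.7%. In the core spliceosome 20 of 33 fell, among them Prpf38b (75.8% to 19.8%), Snrnp70 (46.0% to 11.1%) and Sf3b1 (31.7% to 9.27%). Prpf39 also fell, from 80.2% to 61.0%, and was the highest of the list in WT preMegE. Ddx5, the list's most abundant gene, had 5.47% and 1.25%, under the 5 points required. For comparison, the median over all members went from 21.01% to 6.83%.

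Lists of the translation apparatus and of RNA decay were counted in the same comparison, beside the same 42.5% of all members that fell. Of 65 cytosolic ribosomal protein members, 34 were fitted, the rest having a mean share under 1%, and 11 fell. Among them were Rps19 (35.5% to 1.04%), Rpl5 (52.3% to 19.9%) and Rps16 (73.4% to 42.3%). The list's median share was 2.62% in WT HSC and 0.48% in WT preMegE. Ribosomal protein genes have many processed pseudogenes, which makes their read assignment uncertain. In ribosome biogenesis and snoRNA host genes 17 of 30 fitted members fell, among them Nop56 (52.2% to 7.82%), Dkc1 (25.9% to 2.81%) and Nat10 (60.1% to 29.1%), which take part in RNA modification on preribosomes. In translation factors and tRNA synthetases 16 of 31 fitted members fell, among them Farsa (49.8% to 6.40%), Qars (61.7% to 20.5%) and Eif3d (27.0% to 1.24%). Nonsense-mediated decay factors had 7 members, of which Smg9 (91.0% to 42.1%) and Smg6 (10.6% to 0.69%) fell.

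In lineage, cell cycle and metabolic lists the shares called lower lay on both sides of the 42.5% of all members. In the stem cell and megakaryocyte genes 8 of 14 fell, among them the receptor Kit, with 69.6%, 55.1% and 54.3% in WT HSC and 19.5%, 18.9% and 21.7% in WT preMegE. Retained-intron reads of Kit did not pass the edgeR test (log2 change -0.55, adjusted p = 0.51), and its coding reads rose by 0.93. Procr fell from 37.8% to 0%, but with 8 reads of the gene over the 3 WT preMegE libraries up to 37.5% of its reads could lie in these transcripts undetected. Myb, the list's most abundant gene, went the other way without passing the test, 25.3% ± 6.37 to 38.9% ± 3.28 (SD, n = 3, limma adjusted p = 0.0803). In heme, iron and erythroid genes 5 of 15 fell, among them Urod (76.6% to 42.9%), an enzyme of heme synthesis, and Tfr2 (45.1% to 8.80%), a transferrin receptor. Kel, which encodes a red cell surface antigen, rose from 0% to 10.8% ± 2.17 (SD, n = 3), where its retained-intron transcript held 3.38 reads per library. The gene had only 67 reads over the 3 WT HSC libraries, so the 0% there is not firm. In cell cycle and replication genes 15 of 27 fell, among them Mcm7 (51.5% to 3.92%), Cdk4 (56.7% to 21.9%) and Ccnl2 (70.6% to 27.1%). Aurka, a mitotic kinase, rose from 0% to 8.77% ± 9.77 (SD, n = 3), a spread as large as its mean. In glycolysis genes 5 of 10 fitted members fell, from Eno1 (14.9% to 2.82%) to Ldha (5.63% to 0.55%). In splicing targets of PTBP1 known from other studies 9 of 19 fell, among them Dnmt3b (53.0% to 9.21%) and Flna (27.8% to 1.86%).

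**Figure D5:**
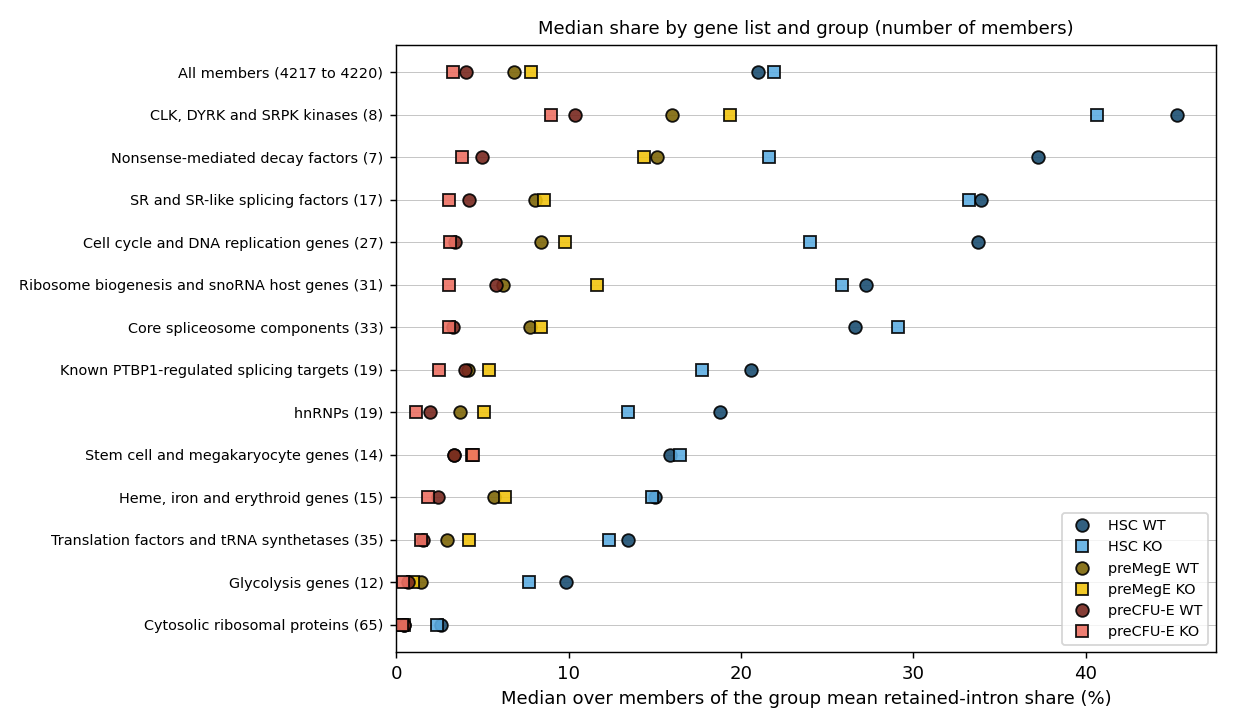
The median over a list's members of the group mean retained-intron share (x axis, %) is plotted for each of 13 gene lists and for all members (y axis, number of members in brackets), with circles for WT and squares for KO groups. In every list both HSC medians lie above the 4 progenitor medians, from 2.62% and 2.40% in ribosomal proteins to 45.3% and 40.6% in the CLK, DYRK and SRPK kinases.

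From WT preMegE to WT preCFU-E single members rarely passed the test although most values were lower. The share was lower in 3298 of 4033 members (81.8%), with a median difference of -1.76 points. Shank3 rose and Stard10 fell, where 0.0668% of all shares were called (0.0297% higher and 0.0371% lower), and 379 members had an unadjusted p below 0.05. The groups did not overlap in 1000 members, beside 22.2% of all shares. Stard10, a lipid transfer protein, had 18.4%, 28.6% and 20.3% in WT preMegE and 1.71%, 1.34% and 2.17% in WT preCFU-E (log2 odds -3.42, SE 0.56, adjusted p = 0.0277), and 30.7%, 63.3% and 43.0% in WT HSC. Shank3, a scaffold protein, had 0% in the 3 WT preMegE libraries, which at 2645 reads of the gene allows up to 0.113% of its reads, and 5.42%, 6.44% and 3.55% in WT preCFU-E. In reads, 172 members fell and 74 rose (edgeR, 15.4% of all rows called), with a median log2 change of -0.24 for retained-intron and 0.51 for coding transcripts. Without the first WT preMegE library 126 were called and without the second or the third WT preCFU-E library 125 or 122, against 246 with all libraries. In shares, Shank3 alone passed without any single WT preMegE library, and none passed without the second WT preCFU-E library.

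Few members were called for loss of Ptbp1 in HSC. The share rose in 13 and fell in 8 of 4033 members (limma, adjusted p below 0.05 and at least 5 points), where 0.757% of all gene-by-class shares were called (0.416% higher and 0.341% lower), against 0.52% of the members. The groups did not overlap in 431 members, beside 10.3% of all shares. At an unadjusted p below 0.05 (limma) there were 484 members, against 103 in preMegE and 94 in preCFU-E. Members that did not pass are therefore not shown to be unchanged. KO values were higher in 51.7% of members and lower in 48.1%, with a median difference of 0.30 points. That median took the other sign without the first (-0.16) or the second (-0.54) KO library. The 21 calls rest on the spread shared by all 18 libraries: with the HSC libraries alone none passed, while 41, 55 or 57 passed without the first WT, the first KO or the third KO library.

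Among the falls, Lgals9, which encodes the lectin galectin-9, had shares of 34.8%, 36.9% and 43.7% in WT HSC and 9.06%, 13.7% and 14.1% in KO HSC (log2 odds -2.10, SE 0.35, adjusted p = 0.0162). The groups did not overlap, and in all 4 progenitor groups the share was at most 2.35% in any library. Its retained-intron reads fell by 2.11 on the log2 scale (edgeR, adjusted p = 0.0341) while its coding reads changed by 0.06 (adjusted p = 0.944). Yy1, a zinc finger transcription factor, had 29.8%, 33.8% and 23.2% in WT HSC and 0%, 0% and 14.4% in KO HSC, and 13.1% to 36.1% in the progenitor libraries. Ier3ip1, a protein of the endoplasmic reticulum, had 38.6%, 40.1% and 34.7% against 0%, 0% and 6.82%. Stx3, a syntaxin of membrane fusion, had 18.1%, 44.5% and 19.7% against 1.16%, 4.52% and 2.27%. Cox20 and Coa5, both assembly factors of cytochrome c oxidase, had 12.5% to 25.1% against 0% to 5.17%, and 7.93% to 17.4% against 0.867% to 5.54%. Ostc, of the oligosaccharyltransferase complex, had 22.6%, 26.3% and 4.56% against 2.04%, 0.171% and 0%. Pabpc4, a cytoplasmic poly(A)-binding protein, had 21.5%, 24.2% and 11.99% against 3.21%, 7.94% and 3.38%. Each of these 8 had lower values in every KO than in every WT library. Mean retained-intron reads were few in most of them, 14.8 and 1.33 per library for Stx3 and 26.3 and 3.63 for Cox20.

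Among the rises, Dstyk, a dual-specificity kinase, had 3.93%, 20.6% and 11.9% in WT HSC and 41.1%, 60.9% and 46.4% in KO HSC (log2 odds 2.96, SE 0.57, adjusted p = 0.0257). Pfkl, the liver form of phosphofructokinase and the only glycolysis gene called, had 8.24%, 19.0% and 6.33% against 36.5%, 53.0% and 38.7%. Vsig10l had 48.8%, 11.6% and 28.9% against 84.9%, 68.0% and 83.6%. Synj2bp, a protein of the outer mitochondrial membrane, had 1.495%, 1.18% and 1.08% against 25.8%, 58.4% and 11.6%. Jade3, a chromatin-associated protein, had 8.40%, 1.08% and 4.27% against 19.3%, 55.7% and 24.8%. Cyp20a1, a cytochrome P450 of unknown substrate, had 5.28%, 0.803% and 0.974% against 23.8%, 50.4% and 12.02%. A430005L14Rik had 0%, 0% and 9.32% against 15.5%, 77.0% and 51.3%. Smim8 had 0% in the 3 WT libraries, which at 141 reads of the gene allows up to 2.13% of its reads, and 6.24%, 50.3% and 21.5% in KO. In these 8 every KO library lay above every WT library, and the second KO library was the highest except in Vsig10l. That library also had the highest pooled share, 24.4%, and the largest share of mitochondrial ribosomal RNA reads, 33.5%. In the fit without it 16 members rose and 10 fell. The part of these library traits in the rises was not tested. Cd151, Necap1, Mtmr2 and Crebrf also rose, to KO means of 18.9%, 17.6%, 17.4% and 10.04%. Csrp3 was called as well, but 1 WT and 1 KO library had no TPM of the gene and were dropped. Its WT value of 0% and KO value of 100% rest on 0.406 and 0.517 TPM. Where a gene mean of at least 20 TPM was required, 0 members rose and 7 fell in KO HSC. Retained-intron reads averaged 1.16 per WT and 22.7 per KO HSC library for A430005L14Rik. They averaged 4.63 and 80.3 for Cyp20a1, and 65.9 and 217 for Dstyk.

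In reads, retained-intron transcripts of Lgals9, Pdcl3 and Zmym2 fell and those of Ect2 rose in KO HSC, 4 of 3859 members where 0.25% of all rows were called. The last 3 were named after their values were seen. Pdcl3 had shares of 41.8%, 56.8% and 68.0% in WT HSC and 34.0%, 33.4% and 28.8% in KO HSC, and Zmym2 15.1%, 33.2% and 30.9% against 3.24%, 0.703% and 10.2%. Ect2, which acts in cell division, had 19.6%, 45.2% and 18.2% against 51.3%, 43.4% and 66.0%, so its groups overlapped. The shares of these 3 did not pass the limma test (adjusted p = 0.214, 0.0614 and 0.155). Without the first or the third KO library 21 members passed in reads, 7 without the second KO library, and 2 without the second WT library.

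In preMegE no member was called for loss of Ptbp1 (limma), where 0.0148% of all shares were called. At an unadjusted p below 0.05 there were 103, and edgeR called 0 and DESeq2 2 on the reads (0.0305% of all rows called by edgeR). The groups did not overlap in 379 members, beside 9.89% of all shares. KO values were higher in 60.1% of members, with a median difference of 0.57 points. This direction came from 1 library: without the first KO library, 44.1% were higher and the median difference was -0.22 points.

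In preCFU-E the share of Ptbp2 fell and that of Ppm1h rose in KO, 2 of 4031 members where 0.0594% of all shares were called, 0.0223% higher and 0.0371% lower. Ptbp2 encodes the PTB paralog that PTBP1 is known to hold down in many tissues through an alternative exon and decay of the product. Its share was 25.3%, 7.61% and 27.0% in WT and 0.80%, 0.855% and 1.24% in KO preCFU-E (log2 odds -3.55, SE 0.50, adjusted p = 0.015). No KO library came near a WT library. In preMegE it was 19.1%, 14.6% and 17.1% in WT and 3.97%, 4.22% and 5.92% in KO, also without overlap, but it did not pass the test (log2 odds -1.86, SE 0.50, adjusted p = 1). In HSC it was 17.9%, 16.3% and 27.4% in WT and 17.3%, 13.5% and 9.54% in KO, with overlap (log2 odds -0.70, SE 0.50, adjusted p = 0.594). The differences between these effects did not pass the test either (preCFU-E minus HSC, adjusted p = 0.282).

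The lower share of Ptbp2 went with more coding reads. Reads of its coding transcripts rose by 4.49 on the log2 scale in preCFU-E, 2.74 in preMegE and 1.19 in HSC (edgeR, adjusted p = 1.83e-07, 6.51e-05 and 0.0486). The retained-intron reads did not pass the test in any of the populations (log2 change -0.18, 0.54 and 0.41). The gene total went in preCFU-E from 7.65 to 57.5 TPM, whereas preMegE had 17.6 and 54.0 TPM and HSC had 48.7 and 117 TPM. The call on the share did not pass without the third WT, the first KO or the third KO preCFU-E library (adjusted p = 0.0645, 0.0809 and 0.0819), while its log2 odds stayed at or below -3.20 in each of these fits.

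Ppm1h, a protein phosphatase, had 5.28%, 0.894% and 1.03% in WT and 27.8%, 23.9% and 32.4% in KO preCFU-E (log2 odds 3.75, SE 0.58, adjusted p = 0.0193). Its groups did not overlap, but the gene held 2.52 and 2.93 TPM and its retained-intron transcripts 2.82 and 13.4 reads per library on average. As a share of estimated counts it did not pass (adjusted p = 0.618). It also lost its call without the second or the third WT library or any single KO library. Retained-intron reads of Wnk1, a kinase of ion transport named after its values were seen, fell in KO preCFU-E, the only 1 of 3859 members called, where 0.104% of all rows were. Its shares were 15.7%, 12.4% and 9.86% in WT and 3.42%, 3.56% and 3.23% in KO, without overlap, but did not pass the limma test (adjusted p = 0.735). A call in reads was left in preCFU-E only when the third WT library was the one omitted, and without any other single library there was none.

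Over all members, KO preCFU-E values were lower in 68.5%, with a median difference of -0.47 points, and the groups did not overlap in 411, beside 11.1% of all shares. Without the first WT preCFU-E library 48.0% were lower and the median difference was 0.02 points. No member was called in more than 1 of the KO comparisons. The KO effect differed between preMegE and HSC in Cyp20a1 (limma, 0.0297% of all shares called). Csrp3 also passed there and between preCFU-E and HSC (0.0817% called), but its HSC values, from 2 libraries a group at under 1 TPM, cannot carry a difference. Between preCFU-E and preMegE no member was called (0.00742%), with 81 at an unadjusted p below 0.05. Cyp20a1 had 9.81%, 4.63% and 7.45% in WT preMegE and 0% in each KO preMegE library, which at 1388 reads of the gene allows up to 0.216% of its reads. Its values thus went the other way from those in HSC.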

How the data were processed

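RNA of 18 libraries was quantified by the authors with Salmon 0.12.0 against mm10 and GRCm38.p6, per the submitters' processing notes, and the deposited files give TPM and estimated counts per transcript. Strandedness is not given in the sources used here, so overlapping and antisense genes cannot be told apart. Transcript types came from GENCODE M21, which matched 136176 of 136288 transcripts. Members and gene lists were chosen with earlier results of these data known.

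Shares of TPM were taken per gene and transcript class, converted to log2 odds with an offset of 0.01, and fitted with limma 3.58.1 (R 4.3.3) over 13478 shares with a mean of 1% to 99%, all 6 groups in one model with 12 residual degrees of freedom and robust moderation. A call needed a Benjamini-Hochberg adjusted p below 0.05 and 5 percentage points. Estimated counts, rounded to whole numbers, were tested with the quasi-likelihood test of edgeR 4.0.16 and, as an alternative, DESeq2 1.42.0. Where a gene had no TPM in a library, that library was dropped for the gene. Where a share is 0%, the limit given is 3 reads as a percentage of the gene's reads; it covers counting error only and is not a limit on the share of TPM, which can be higher. The scripts were tested on simulated data.

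Named members were the 8 largest rises and 8 largest falls called without overlap in each comparison, those called for a difference between populations, the 8 highest by share and by TPM, called and most abundant list members, and the genes next to the 10 TPM limit. Others are said to be chosen after their values were seen. Alternatives were other offsets, filters, tests, scalings and leaving out libraries. The window of 1 further member chosen by the same rule is not reported here.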

Additional observations from a re-analysis of the deposited data

Results flagged for a closer look

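The KO effect on 2 members differed between populations by a limma test of the difference itself (log2 odds of the share, n = 3 libraries a group for Cyp20a1). For Cyp20a1 the effect in preMegE minus that in HSC was -6.7753 (SE 0.99, adjusted p = 0.020156): every KO library was higher than every WT library in HSC and lower in preMegE. For Csrp3 the effect in preMegE minus HSC was -13.968 (SE 0.69, adjusted p = 2.1436e-07) and in preCFU-E minus HSC -13.184 (adjusted p = 4.4556e-07). The Csrp3 values cannot carry a difference of the KO effect: in HSC the gene had 0.406 TPM in WT and 0.517 TPM in KO, with 3 reads over the WT libraries, and 1 library of each was dropped for lack of TPM, leaving 2 each. Csrp3 reached the 10 TPM limit through preMegE.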

How the results depend on the processing

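The fall from WT HSC to WT preMegE, 1755 members called, came to 1187 to 1626 calls with single libraries left out and to 1244 to 1943 under the other alternatives except centring on the library median (chosen after seeing the data), which gave 293. There Stard10 (0.22108) and Capns1 (0.25618) changed sign in log2 odds. KO calls in HSC (21) came to 3 with an offset of 0.001, 58 with 0.05, and 7 with at least 20 TPM, all 7 lower. They came to 7 with edgeR's diffSpliceDGE, 0 with HSC libraries alone and 20 to 57 with single libraries left out. In preMegE (0) there was 1 with at least 5 TPM, 1 with preMegE alone, and 0 to 0 with libraries left out. In preCFU-E (2) there were 0 with an offset of 0.05, 1 with 20 TPM, 0 alone, 0 with 10 TPM in each group (chosen after seeing the data), and 0 to 4 with libraries left out. From WT preMegE to WT preCFU-E (2) there were 4 with an offset of 0.001, 0 with 0.05, 1 with 10 points, 4 with a trend on gene TPM, 4 with diffSpliceDGE, 1 with 10 TPM in each group, 1 centred, and 0 to 3 with libraries left out. The preMegE minus HSC difference (2) came to 1 with an offset of 0.05. In reads, KO HSC (4) gave 2 with RLE factors, 73 with DESeq2 and 2 to 21 with libraries left out. KO preMegE (0) gave 2 with DESeq2 and 0 to 0. KO preCFU-E (1) gave 2 without a count filter, 5 with DESeq2 and 0 to 1. The WT steps in reads gave 766 to 1261 (of 1606) and 122 to 304 (of 246). Mean library levels of 19.9%, 6.47%, 3.76% and 3.08% in WT HSC, WT preMegE, WT preCFU-E and KO preCFU-E were 21.1%, 8.54%, 7.53% and 6.79% as pooled shares. As shares of estimated counts they were 10.9%, 3.06%, 1.83% and 1.44%, and KO HSC and KO preMegE went from 20.3% and 7.25% to 11.3% and 3.50%. The labels give replicate numbers but do not say whether equal numbers pair a WT with a KO library. Deviations of the members from their group means correlated at -0.077 to 0.037 between WT and KO libraries of equal number. Such a correlation cannot show a shift shared by all members, so pairing remained unknown. With the replicate number as a block, calls were 4 in KO HSC, 0 in KO preMegE, 0 in KO preCFU-E, 1774 and 3 in the WT steps, and 1, 0 and 0 for the differences between populations. The cause of these changes was not tested. Few reads limit members such as Ppm1h, Stx3 and Csrp3.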
